A study of Mus musculus with 42 samples.

Results

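High-risk skin papillomas of mice were compared with low-risk papillomas on a 2-colour oligonucleotide array. The arrays were chosen by their titles, which gave 10 high-risk arrays and 10 low-risk arrays, or 20 of the 42 arrays of the series. One low-risk array with swapped dyes carries the source name of low-risk papilloma 1 and was averaged with it on that ground, which left 10 high-risk and 9 low-risk papillomas (1, 2 and 4 to 10). Every papilloma came from a female Sencar mouse whose tumour was initiated at an age of 7 to 8 weeks and which had been given DMBA and TPA. Both groups therefore share strain, sex and agents, and the source codes begin with 1B for the high-risk and with 2 for the low-risk papillomas. The labels do not say what was done differently to produce the 2 grades of risk, nor that each papilloma came from its own animal. The first part of the source code is shared by high-risk papillomas 1 and 2, 3 and 5, and 6 and 10, and by low-risk papillomas 2 and 8, and what a shared code stands for is not stated. P-values therefore measure the spread among these samples, part of which may be technical. For orientation the same array design also held 6 untreated normal skins, with no strain given, and 6 squamous cell carcinomas from Sencar females given DMBA and TPA.

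DMBA is a carcinogen that mutates epidermal cells, classically in the Hras gene, and TPA is a tumour promoter that activates protein kinase C and makes the mutated cells expand. The papillomas that grow out are benign, and a minority of them progress to squamous cell carcinoma. A papilloma is a folded, thickened epidermis over a stalk of connective tissue, and it holds keratinocytes at every stage of differentiation together with vessels, fibroblasts and white blood cells. A value for a whole tumour is an average over all of these cells.

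Values are log2 ratios of the tumour RNA over a universal mouse reference RNA, centred on the median of each array. Thus 0 is the median ratio of an array, called the level of the reference here, and each unit is a doubling. That sample stands over reference is likely rather than stated. A log2 change is the mean of the high-risk papillomas minus the mean of the low-risk papillomas. A gene is called when its p-value, adjusted by Benjamini and Hochberg over all 18904 probes tested, was under 0.05 in a limma model of all 4 groups. Krt5, a keratin of basal keratinocytes, was above the reference in every papilloma, from 1.75 to 5.52 in the low-risk and from 1.97 to 6.73 in the high-risk group.

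The papilloma arrays were not alike in quality. They held values for 16286 to 21494 of 21997 probes, and their ratios had a standard deviation of 0.45 to 1.95. High-risk papillomas 6 to 9 had the narrowest ratios, with standard deviations of 0.45 to 0.78, against 1.15 to 1.72 in the other 6 high-risk and 1.04 to 1.95 in the low-risk arrays. Their values for most genes therefore lie near 0. Several arrays correlated best with an array of the other group, across genes, which are not independent replicates. High-risk papilloma 5 and low-risk papilloma 7 were each other's best match (r = 0.872), and low-risk papilloma 6 also correlated best with high-risk papilloma 5 (r = 0.718). High-risk papillomas 1 and 10 correlated best with low-risk papilloma 5 (0.687 and 0.675), and low-risk papilloma 9 with high-risk papilloma 10 (0.539). The group labels were kept as given, and whether any tumours are exchanged was not tested. The swapped array correlated with low-risk array 1 at 0.306 and best with low-risk papilloma 5, at 0.637, and its title bears another number than its source name, so its tumour is in doubt.

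**Figure D1:**
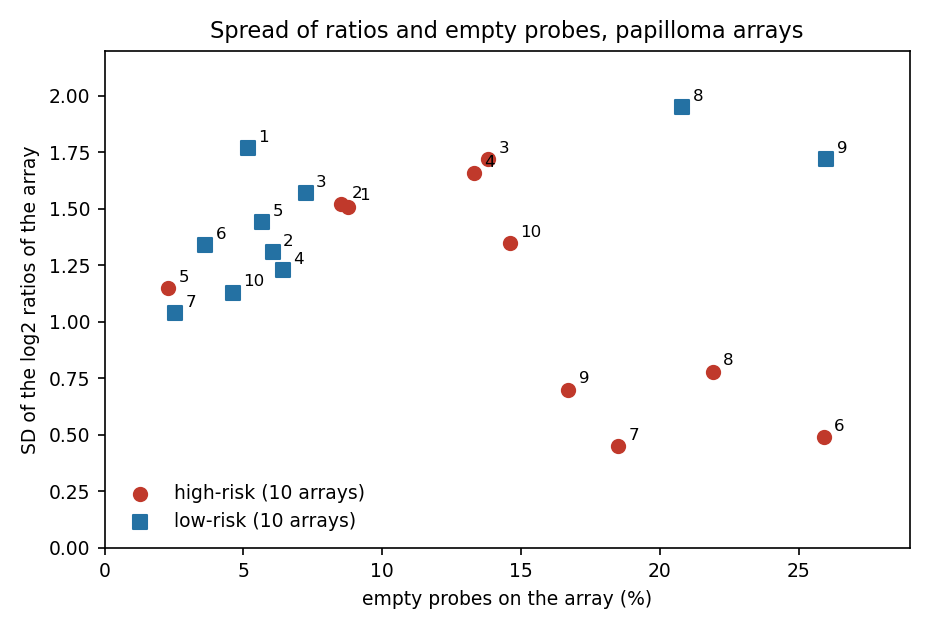
Standard deviation of the log2 ratios (vertical axis) against the percentage of empty probes (horizontal axis) on the 20 papilloma arrays, each point labelled with its replicate number; low-risk 3 is the swapped array. High-risk papillomas 6 to 9 sit at 0.45 to 0.78, below every low-risk array.

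In the model of 4 groups 126 of 18904 probes were called, 67 higher and 59 lower in the high-risk papillomas. That is 0.667% of the probes tested, 0.354% higher and 0.312% lower. Of the 126, 85 carried 1 gene symbol, 49 higher and 36 lower, and the other 41 are not named. These calls rest on a spread estimated with normal skin and carcinoma included. The arrays of normal skin 1 and carcinoma 6 are nearly identical, and without that pair 113 probes were called (58 higher, 55 lower), 105 of them among the 126. When only the 2 papilloma groups were fitted, limma called 0 probes, with a smallest adjusted p of 0.0802, while 2180 probes (11.5%) had an unadjusted p under 0.05. The changes themselves are the same in both fits, and the estimate of their spread is not. Each call below is one of the 4-group model. Counts of list members at an unadjusted p under 0.05 in the papillomas alone stand against that 11.5% of all probes.

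The mean of the high-risk group lay closer to the reference in most called genes. It was nearer to 0 than the low-risk mean in 104 of the 126 called probes (82.5%), against 56.0% of all probes tested. That mean includes papillomas 6 to 9, whose ratios were narrow, and the count was not made without them. For Vhl the mean was 0.22 in papillomas 6 to 9 and 1.17 in the other high-risk papillomas, against -0.75 in the low-risk group. Without high-risk papillomas 6 to 9, every one of the 126 changes kept its direction with an unadjusted p under 0.05, and 59 were among the 200 then called. Arrays were also sorted into 5 sets by which probes were empty. With the set in the model 0 probes were called (2535 at an unadjusted p under 0.05), and 124 of the 126 changes kept their direction. Within the set that held both groups, which were high-risk papillomas 1 to 5 and low-risk papillomas 6, 7 and 10, 0 were called (1954 unadjusted) and 124 of 126 changes again had the same direction. Sorting the arrays by complete linkage left high-risk papilloma 5 alone beside the same 3 low-risk papillomas, and then 70 of 126 changes (55.6%) had the same direction. With those sets in the model 0 were called (275 unadjusted), and 112 of 126 (88.9%) kept their direction. The comparison with 1 high-risk tumour rests on papilloma 5, whose array was already known to resemble low-risk papilloma 7, so it says little about the group. Group and array set partly coincide and cannot be fully told apart. The 126 were picked for their difference in these same arrays. A kept direction or a low unadjusted p in refits of these arrays is therefore largely built in.

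Oxygen sensing gave 1 rise and 1 fall, at neighbouring steps of the pathway. Cells mark the alpha subunits of the hypoxia-inducible factors with hydroxyl groups when oxygen is present, and the Vhl protein then recognises the mark and has the subunit destroyed. Vhl, the substrate receptor of this ubiquitin ligase, ranged from -1.37 to 0.02 in the low-risk papillomas, with a median of -0.62. In the high-risk papillomas it ranged from -0.32 to 2.27, with a median of 0.66. High-risk papillomas 1 to 4 and 10 were highest, from 0.99 to 2.27, those numbered 6 to 9 lay just above every low-risk tumour, and papilloma 5 fell within the low-risk range. The log2 change of Vhl was 1.54 ± 0.26 (SE, 10 against 9), or 2.92-fold, with an adjusted p of 0.00858 in limma. Vhl stayed called when each of the 19 papillomas was left out in turn. In normal skin its median was -0.02 and in carcinoma 0.09, so the low-risk papillomas lay below both and the high-risk papillomas above both by their medians.

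Egln3, a prolyl hydroxylase that places the mark which Vhl reads and is itself a hypoxia-induced gene, went the other way. Its low-risk levels ran from 0.16 to 2.49 with a median of 1.48, and its high-risk levels from -1.28 to 2.17 with a median of -0.15. High-risk papilloma 5, at 2.17, was far above the other 9, the next of which was at 0.40, and low-risk papilloma 6, at 0.16, was the lowest of its group. Egln3 changed by -1.44 ± 0.34 (adjusted p 0.038 in limma), a fall of 2.72-fold, and was called in 7 of the 19 fits that left out 1 papilloma. With the sets of complete linkage in the model, its change turned to 0.31.

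The other members of the hydroxylase and Vhl pathway did not pass the test. Of 17 listed genes, 1 was called higher and 1 lower, and their median change was -0.16, against 0.02 over all probes tested. Elob, elongin B, which joins Vhl to the ligase, had a change of 0.93 (adjusted p 0.0821), with a high-risk mean of -0.41 and a low-risk mean of -1.34. Epas1, the HIF-2 alpha subunit, had a change of -1.16 ± 0.45 (adjusted p 0.182), and its values ran from -1.38 to 2.90 in the low-risk group and from -1.66 to 1.80 in the high-risk group. Hif1a, the HIF-1 alpha subunit, had -0.67 (adjusted p 0.386), and the hydroxylases Egln1 and Egln2 had -0.02 and 0.68 (adjusted p 0.963 and 0.209). The cullin of the ligase, Cul2, had 0.23 (adjusted p 0.547).

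The list of other genes switched on by hypoxia-inducible factors, which leaves out Egln3, held no call. Of its 24 tested targets 0 were called higher and 0 lower, 2 had an unadjusted p under 0.05 in the fit of the papillomas alone, and the median change was -0.06. Vegfa, the vessel growth factor, had 0.05 ± 0.31 (adjusted p 0.956). Ldha, lactate dehydrogenase A, had -0.11 ± 0.29 (adjusted p 0.869), and Pgk1, a glycolytic kinase, had -0.01 ± 0.38 (adjusted p 0.996). The standard errors leave room for changes of either sign in these 3 genes.

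The promoters of Vhl and Egln3 are shown because the pair changed in opposite directions at neighbouring steps, and that choice was made with the values known. Both are the 250 bases before the first start that RefSeq lists in GRCm38.p6, Vhl at chr6:113623744-113623993 on the plus strand and Egln3 at chr12:54203875-54204124 on the minus strand, 5′ to 3′. Capitals mark a match to the core of the hypoxia response element, ACGTG or GCGTG, on either strand.
Vhl: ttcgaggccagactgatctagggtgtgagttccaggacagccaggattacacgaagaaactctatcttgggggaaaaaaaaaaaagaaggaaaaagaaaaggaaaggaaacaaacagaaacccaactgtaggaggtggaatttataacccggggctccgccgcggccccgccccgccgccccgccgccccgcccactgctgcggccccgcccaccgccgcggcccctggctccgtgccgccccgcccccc
Egln3: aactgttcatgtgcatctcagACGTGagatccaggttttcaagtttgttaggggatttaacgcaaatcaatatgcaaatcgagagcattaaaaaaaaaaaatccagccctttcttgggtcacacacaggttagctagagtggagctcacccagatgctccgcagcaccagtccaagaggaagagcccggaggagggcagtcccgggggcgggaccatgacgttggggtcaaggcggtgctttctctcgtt
Egln3 held 1 match, at position -229, and Vhl held 0 in this window. Such a core is common: 38.6% of 27025 promoters of this length held it, as did 37.1% of the 35 matched promoters of genes called higher and 51.9% of the 27 of genes called lower. These shares were not tested. A match names letters in the window and not a site that is used.

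**Figure D2:**
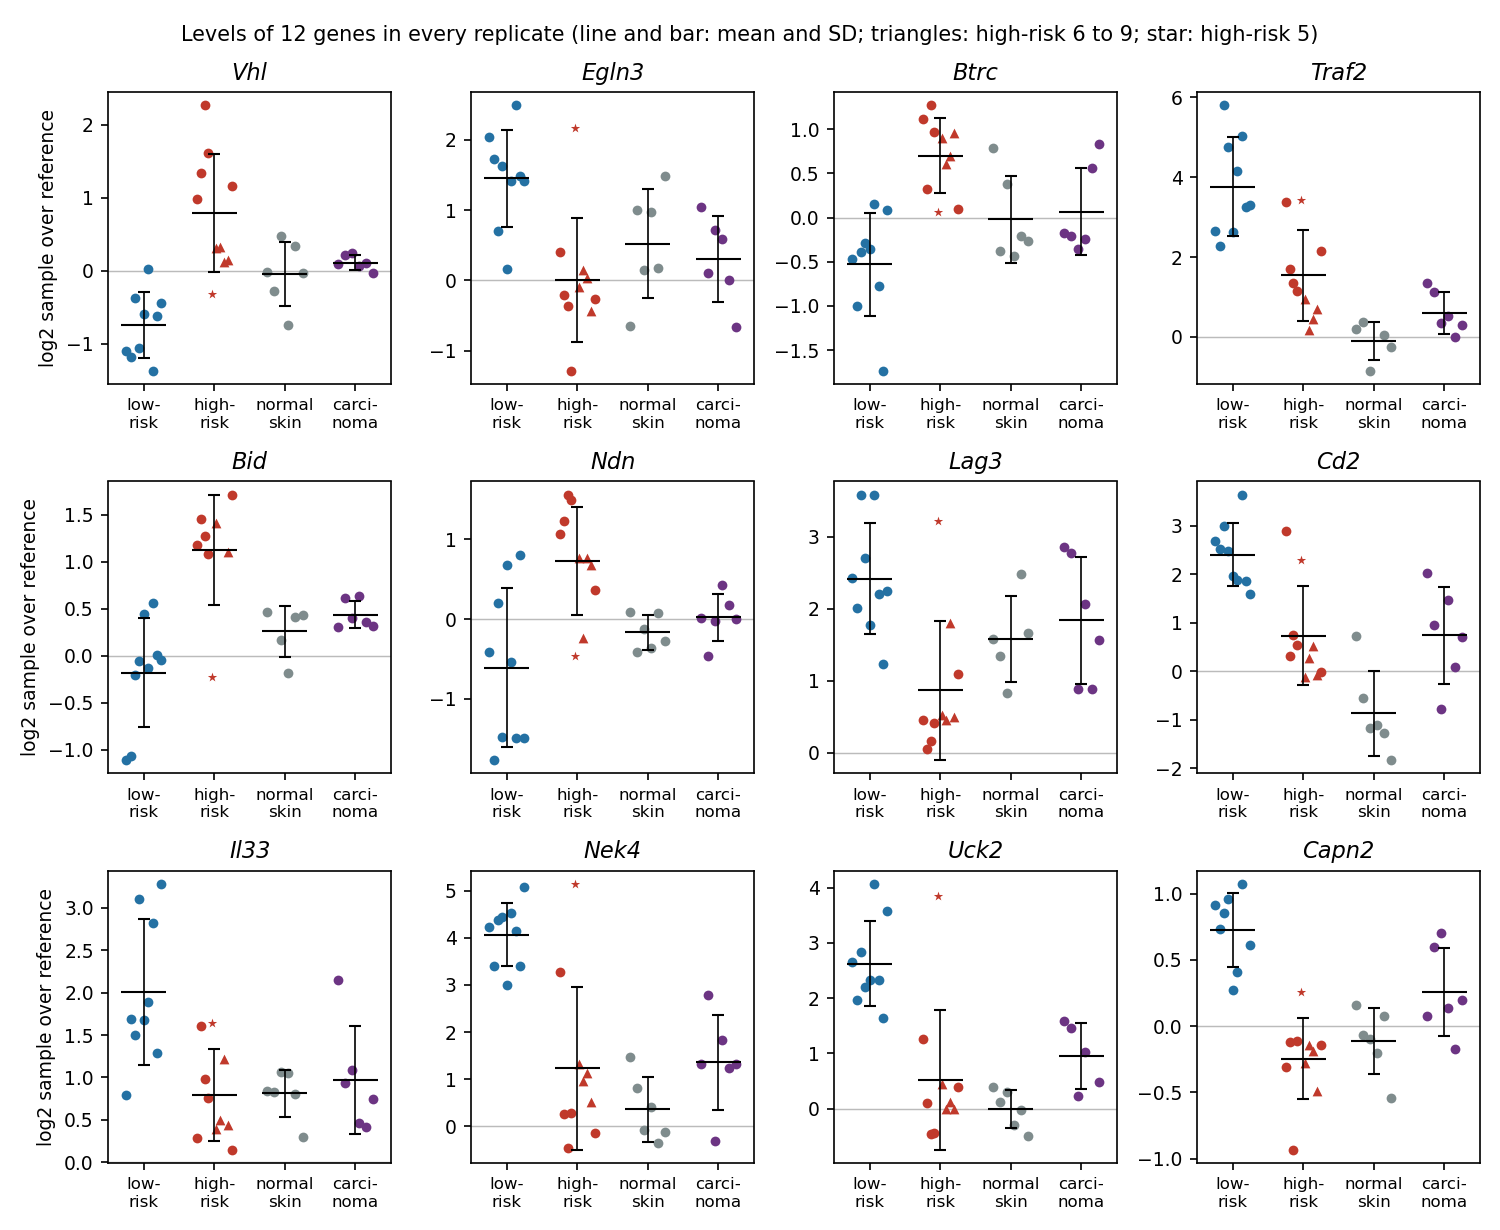
Log2 level over the reference (vertical axes) of 12 genes in each low-risk papilloma, high-risk papilloma, normal skin and carcinoma; lines are means, bars are SDs, triangles are high-risk papillomas 6 to 9 and the star is high-risk papilloma 5. In Egln3, Uck2 and Lag3 the star lies among the low-risk values, and in Nek4 just above them. In Capn2 no low-risk value falls below the highest high-risk value.

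Among the called genes named here, the blood and iron genes Trf and Hbb-b2 had the largest changes before the arrays were scaled to a common spread. Hbb-b2, a beta chain of adult haemoglobin, lay far below the reference in the low-risk papillomas, from -6.21 to -2.42 with a median of -5.24. It was less low in the high-risk papillomas, from -3.81 to 0.25 with a median of -1.62. High-risk papillomas 2, 3 and 7 were near the reference level, at -0.04, 0.25 and 0.05, and 4 high-risk values fell within the low-risk range. The array of papilloma 7 had the narrowest ratios, with an SD of 0.45, so most of its values lie near 0. The log2 change of Hbb-b2 was 2.94 ± 0.58, or 7.66-fold, with an adjusted p of 0.0157 in limma. Hbb-b2 stayed called in all 19 fits that left out 1 papilloma. After scaling of the arrays to a common spread it was 1.30.

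No other red-cell gene passed the test. Of 21 tested globin and red-cell genes, 1 was called higher and 0 lower, and their median change was -0.24. Hba-a1, the alpha chain that pairs with beta chains in haemoglobin, had -0.24 ± 0.44 (adjusted p 0.804), Alas2, the haem-making enzyme of red cells, -0.34 ± 0.35 (adjusted p 0.631), and Slc4a1, the red-cell anion exchanger, -0.63 ± 0.28 (adjusted p 0.239). Whether a probe for Hbb-b2 also binds transcripts of its near-identical neighbour is not given in the sources used here.

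Transferrin and the iron hormone hepcidin were called lower. Of 30 tested genes of iron and haem, 0 were called higher and 2 lower, with a median of -0.18. Trf, transferrin, which carries iron in blood, had -4.83 ± 1.13 (adjusted p 0.0454), but it was measured in 5 of the 10 high-risk papillomas. In those 5 it ran from -11.03 to -1.52, and in the low-risk group from -6.18 to 0.33, where papilloma 8 alone was under -2.10. Trf was called in 4 of 19 fits that left out 1 papilloma. Hamp, hepcidin, the hormone that shuts the iron exporter, ran from 2.35 to 5.77 in the low-risk and from 0.18 to 5.47 in the high-risk papillomas, with medians of 4.56 and 1.76. High-risk papilloma 5 was at 5.47 and papillomas 6 to 9 were at 0.18 to 1.45. The change of Hamp was -2.07 ± 0.51 (adjusted p 0.0459), it was called in 5 of 19 such fits, and it shrank to -0.36 within the array set that held both groups. Lcn2, an iron-binding defence protein of neutrophils and wounded epidermis, had -2.34 ± 0.77 and was not called (adjusted p 0.121).

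Among genes of immune cells a few receptors and messengers fell. Cd2, an adhesion receptor of T and NK cells, had low-risk levels of 1.60 to 3.64 (median 2.49) and high-risk levels of -0.12 to 2.89 (median 0.43). High-risk papillomas 1 and 5 lay among the low-risk tumours, at 2.89 and 2.29, and the other 8 lay below all of them. The change was -1.67 ± 0.40 (adjusted p 0.04), against -0.46 within the shared array set. Lag3, an inhibitory receptor of activated T cells, had low-risk levels of 1.23 to 3.58 (median 2.25) and high-risk levels of 0.05 to 3.21 (median 0.48), the highest in papilloma 5. Its change was -1.55 ± 0.37 (adjusted p 0.0437). Cd2 and Lag3 were each called in 6 of the 19 fits that left out 1 papilloma.

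No chain of the T-cell receptor complex passed the test. Of 36 tested T-cell genes, 0 were called higher and 2 lower, and the median was -0.05. Cd3e had 0.49, Cd3d -0.40 and Cd3g -0.67 (adjusted p 0.196, 0.623 and 0.294), and these encode chains of 1 complex. The co-receptors Cd4 and Cd8a had 0.38 and 0.41 (adjusted p 0.565 and 0.388). In whole tumours fewer cells of a type and less RNA per cell cannot be told apart. The part of a change in T-cell number in the falls of Cd2 and Lag3 was not tested. No member of the lists for B cells (17 tested), macrophages (29), neutrophils and mast cells (31), vessels (22) or fibroblasts (29) was called in either direction, with medians from -0.11 to 0.09. In the fit of the papillomas alone 3, 2, 4, 1 and 1 of them had an unadjusted p under 0.05.

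Cytokines and adhesion molecules were called on both sides. Il33, an alarm cytokine stored in the nuclei of keratinocytes, ran from 0.79 to 3.28 in the low-risk and from 0.15 to 1.64 in the high-risk papillomas. Every high-risk value was below the low-risk mean, and the change was -1.21 ± 0.29 (adjusted p 0.0433). A further 5 called genes of this kind are named after their values were seen, since they lacked a value in some papilloma and belong to no list. Il17a, a cytokine of Th17 and gamma-delta T cells, fell by 1.5, and Cx3cl1, the membrane-bound chemokine fractalkine, fell by 2.30 on the log2 scale (adjusted p 0.0491 and 0.0285). Ackr3, a receptor that scavenges the chemokine Cxcl12, fell by 1.45, and Sema4d, a semaphorin of lymphocytes, fell by 1.04 (adjusted p 0.0476 and 0.0294). Icam1, to which white cells adhere, rose by 1.41 ± 0.24 (adjusted p 0.00925, 9 against 8), from a low-risk median of -0.40 to a high-risk median of 1.06. Icam1 was called in all 19 fits that left out 1 papilloma, Ackr3 in 4.

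Traf2, of TNF and NF-kB signalling, and Btrc, of NF-kB and beta-catenin signalling, moved in opposite directions. Traf2, an adaptor that carries the signal from TNF receptors, ran from 2.27 to 5.80 in the low-risk papillomas (median 3.31) and from 0.17 to 3.42 in the high-risk papillomas (median 1.25). High-risk papillomas 6 to 9 were lowest. The change was -2.22 ± 0.44, a fall of 4.65-fold, with an adjusted p of 0.0157. It was -1.57 without papillomas 6 to 9 and -1.16 within the shared array set, and in normal skin the median was 0.05 and in carcinoma 0.43.

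Btrc, the F-box protein that picks IkB and beta-catenin for destruction, rose. It ran from -1.73 to 0.15 in the low-risk papillomas (median -0.39) and from 0.06 to 1.27 in the high-risk papillomas (median 0.80). High-risk papillomas 5 and 10, at 0.06 and 0.10, met the top of the low-risk range, and the other 8 lay above it. The change was 1.23 ± 0.23 (adjusted p 0.0123), and Traf2 and Btrc were both called in all 19 fits that left out 1 papilloma. In the sets of complete linkage the change of Btrc came to -0.04.

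Few other members of their pathways passed the test. Of 33 tested genes of TNF and NF-kB signalling, 1 was called higher (Btrc) and 1 lower (Traf2), with a median of -0.06. Cflar, which blocks caspase 8, had 0.84 (adjusted p 0.141). Of 42 tested Wnt genes, 2 were called higher and 0 lower, with a median of 0.13. These were Btrc and Mdfic, a protein with a MyoD family inhibitor domain, which rose by 1.24 ± 0.26 (adjusted p 0.023) from a low-risk median of -1.09 to a high-risk median of 0.07. Ctnnb1, beta-catenin, had -1.53 ± 0.39 and missed the threshold (adjusted p 0.0542). Its low-risk values ran from -1.15, in papilloma 6, to 1.64, and its high-risk values from -3.24 to 0.58.

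The growth factor pathway that is mutated in this model held no call. Of 35 tested genes of the EGF receptor, Ras and their kinases, 0 were called higher and 0 lower, 4 had an unadjusted p under 0.05 in the papillomas alone, and the median was 0.04. Grb2, the adaptor between the receptor and Ras, had 0.71 ± 0.20 (adjusted p 0.0717). Tgfa, a ligand of the receptor that keratinocytes make, had 0.98 ± 0.28 (adjusted p 0.0849), with levels of 0.28 to 1.99 in the low-risk and 1.15 to 3.73 in the high-risk papillomas. Egfr, the receptor, had 0.59 ± 0.20 (adjusted p 0.139). These 3 genes had their high-risk mean above their low-risk mean without passing the test. None of 23 tested AP-1 and immediate-early factors (median 0.13), 50 cell-cycle genes (median -0.04) or 34 genes of TGF-beta and BMP signalling (median 0.02) was called, while 1, 4 and 2 of them had an unadjusted p under 0.05 in the papillomas alone. Oaz1, the antizyme that holds down polyamine synthesis, had -1.36 ± 0.34 (adjusted p 0.0534).

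Cell death, oxidant defence and imprinted genes each gave 1 rise. Bid, which carries a death signal to the mitochondria, ran from -1.11 to 0.56 in the low-risk papillomas (median -0.06). In 8 measured high-risk papillomas it ran from -0.23 to 1.71 (median 1.22). Apart from papilloma 5, at -0.23, every measured high-risk value was 1.08 or higher and lay above the low-risk range. The change was 1.30 ± 0.24 (adjusted p 0.0123), and Bid was called in all 19 fits that left out 1 papilloma. It was 1 call in 30 tested genes of p53 and the cell-cycle inhibitors, whose median was 0.11.

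Sod1, the copper and zinc superoxide dismutase of the cytosol, rose by 1.12 ± 0.27 (adjusted p 0.0447), from a low-risk median of -2.75 to a high-risk median of -1.25. The groups overlapped, and Sod1 was called in 7 of the 19 fits. Its change was 0.31 after scaling to a common spread and 0.56 after quantile normalization. It was 1 call among 44 tested genes of glutathione, thioredoxin and carcinogen metabolism, whose median of 0.23 was above that of all genes. Ndn, necdin, an imprinted gene expressed from the paternal copy, ran from -1.77 to 0.81 in the low-risk and from -0.46 to 1.56 in the high-risk papillomas. Its change was 1.33 ± 0.31 (adjusted p 0.0359), it was called in 7 of the 19 fits, and it was 1 call among 27 imprinted genes (median 0.22).

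Keratinocyte differentiation showed 1 call, and the mean levels of its lists differed between arrays of the high-risk group. Tchhl1, a trichohyalin-like protein of the epidermal differentiation complex, was measured in 7 high-risk and 8 low-risk papillomas. Its low-risk levels were 1.58 to 4.26 (median 1.85) and its high-risk levels -0.57 to 1.54 (median -0.29), so the groups did not overlap. The change was -2.17 ± 0.46 (adjusted p 0.0237), and high-risk papilloma 5 had the highest high-risk value, at 1.54, just under the low-risk range. Papillomas 6 to 9, with their narrow ratios, had a mean of -0.38, against 0.73 in the other measured high-risk papillomas. Without papillomas 6 to 9 the change of Tchhl1 was -1.53, and within the shared array set it was -1.12. Tgm1, the transglutaminase that crosslinks the cornified envelope, had -1.58 ± 0.41 (adjusted p 0.0565) but 0.15 within the shared array set. Lce1e, a late envelope protein, had 1.93 ± 0.50 (adjusted p 0.0613, 6 against 9).

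Of 43 tested genes of the cornified envelope 0 were called higher and 1 lower, with a median change of -0.45. In the papillomas alone 10 of them had an unadjusted p under 0.05. Of 35 genes of wounded or hyperproliferative epidermis 0 were called either way, and the median was -0.43. Of these 35 also 10 had an unadjusted p under 0.05 in the papillomas alone, against 11.5% of all probes. Without high-risk papillomas 6 to 9 these medians were 0.07 and -0.01, and within the shared array set 0.33 and 0.09. They were -0.55 and -0.53 within 1 range of array database numbers. The mean envelope level of papillomas 6 to 9 was 0.69 to 1.84, against 2.67 to 3.71 in the other 6 high-risk papillomas. It was 2.21 to 4.01 in the low-risk group. The 6 high-risk papillomas other than 6 to 9 thus lay within the low-risk range. The ribosomal proteins had a median of 0.26 over 62 tested members with 0 called (4 at an unadjusted p under 0.05 in the papillomas alone), and it was 0.38 without papillomas 6 to 9 and 0.50 within the shared array set. Within 1 range of array database numbers it was 0.07, near the 0.01 of all probes there.

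**Figure D3:**
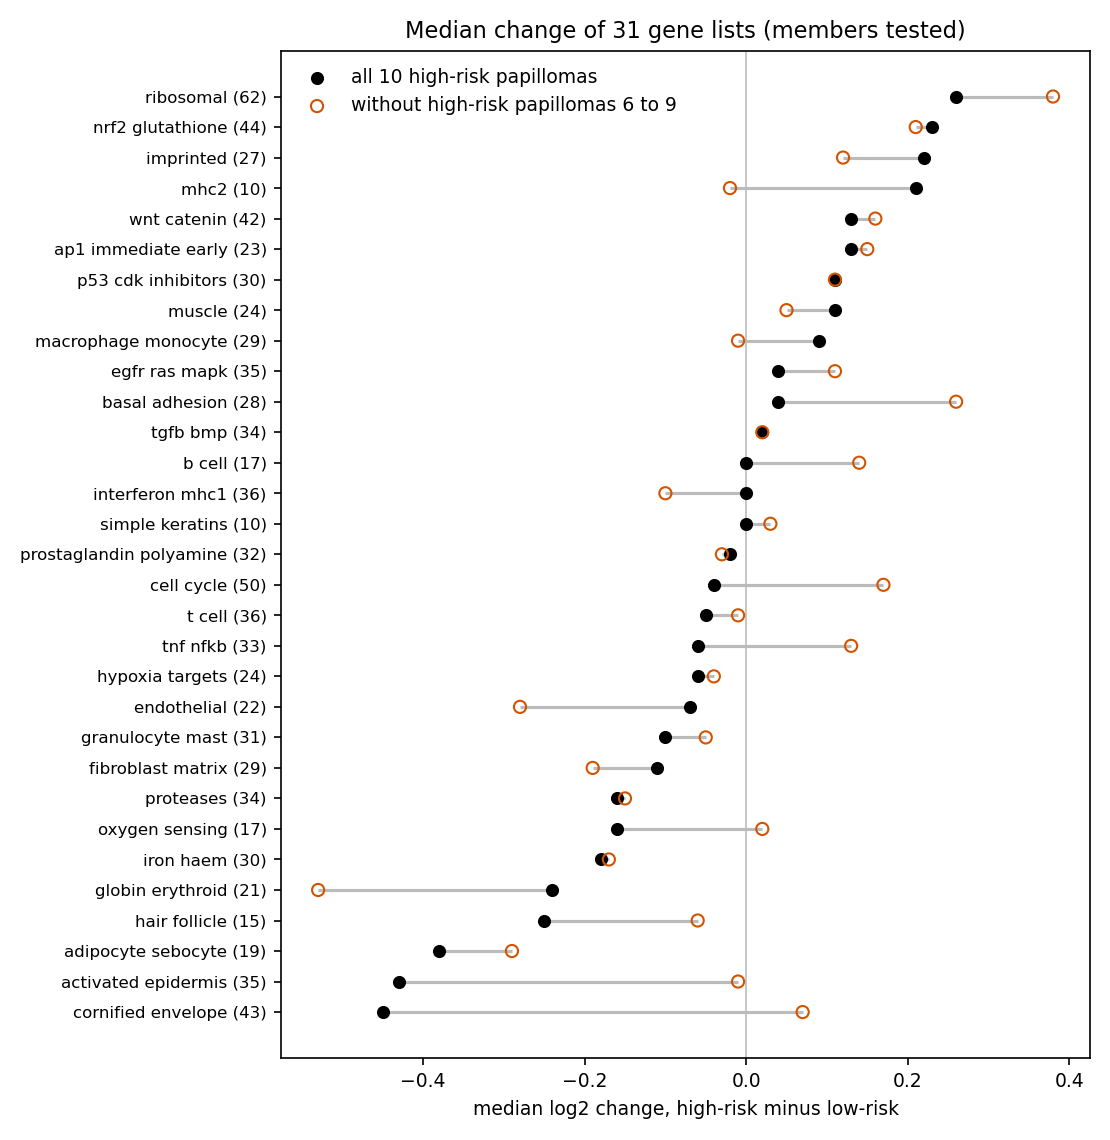
Median log2 change, high-risk minus low-risk (horizontal axis), of the tested members of 31 gene lists, with the number of members in brackets; filled points use all 10 high-risk papillomas and open points leave out papillomas 6 to 9. The lists of the cornified envelope and of activated epidermis move from -0.45 and -0.43 to 0.07 and -0.01, while the ribosomal list moves from 0.26 to 0.38.

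Autophagy genes were gathered after their values were seen, so their count is a description. Of 28 tested, 0 were called higher and 3 lower, with a median of -0.22. Over all probes tested 0.312% were called lower, but a list gathered by its values cannot be set against that share. Calcoco1, a receptor that takes cargo to autophagosomes, ran from 0.76 to 4.85 in the low-risk and from 0.02 to 3.44 in the high-risk papillomas, and its change was -2.0 ± 0.40 (adjusted p 0.016). Gabarapl2, which is conjugated to the autophagosome membrane, fell by 0.92 (adjusted p 0.0247). Wipi2, which binds the lipid of the forming autophagosome, had -1.04 on the probe used (adjusted p 0.0237) and 0.05 on its other probe, so its fall holds for 1 of its 2 probes. Within the shared array set the changes of Calcoco1, Gabarapl2 and Wipi2 were -1.07, -0.62 and -1.01.

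Among called genes that belong to no list, Nek4, Uck2 and Lgals2 fell by 2.0 or more and were measured in every papilloma. Nek4, a kinase of the NIMA family, ran from 2.99 to 5.08 in the low-risk papillomas (median 4.24) and from -0.46 to 5.14 in the high-risk papillomas (median 0.74). High-risk papilloma 5 had the highest value of all 19 tumours. The change was -2.84 ± 0.51, or 7.17-fold (adjusted p 0.0108). Uck2, a kinase that salvages uridine and cytidine, ran from 1.65 to 4.06 (median 2.33) and from -0.46 to 3.85 (median 0.12) in these groups. Apart from papilloma 5, at 3.85, every high-risk value of Uck2 was 1.26 or lower, below the low-risk range. Its change was -2.10 ± 0.40 (adjusted p 0.0123), and both genes were called in all 19 fits that left out 1 papilloma. Lgals2, galectin-2, a sugar-binding protein, fell by 2.0 ± 0.40 (adjusted p 0.0157), and papilloma 5 was highest within the high-risk group, at 3.72.

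Groups that did not overlap at all were rare. Of 18904 probes 11 (0.0582%) had every high-risk value on one side of every low-risk value, and 5 of these were called, Capn2, Fpgt, Tchhl1 and 2 probes without a name. Capn2, the catalytic subunit of the calcium-activated protease m-calpain, had low-risk levels of 0.27 to 1.07 (median 0.79, 8 papillomas) and high-risk levels of -0.93 to 0.26 (median -0.17). The gap between the groups was small, with high-risk papilloma 5 and low-risk papilloma 6 on either side of it. The change was -0.97 ± 0.16 (adjusted p 0.00858), and the medians of normal skin and carcinoma were -0.09 and 0.17. Fpgt, which makes GDP-fucose in the salvage route, was measured in 9 high-risk and 6 low-risk papillomas and changed by -1.48 ± 0.30 (adjusted p 0.0237).

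The promoters of Capn2 and Tchhl1 are shown as examples of non-overlapping genes with a match to the AP-1 motif, and were chosen after both values and matches were seen. AP-1 is the factor through which TPA drives many of its target genes. They are the 250 bases before the start in GRCm38.p6 per RefSeq, Capn2 at chr1:182517611-182517860 on the minus strand and Tchhl1 at chr3:93468504-93468753 on the plus strand, with TGANTCA in capitals.
Capn2: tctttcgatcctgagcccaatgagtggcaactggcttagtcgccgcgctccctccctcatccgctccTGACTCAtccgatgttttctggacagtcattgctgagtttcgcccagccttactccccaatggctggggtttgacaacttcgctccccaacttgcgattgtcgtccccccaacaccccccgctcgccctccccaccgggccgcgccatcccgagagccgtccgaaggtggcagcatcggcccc
Tchhl1: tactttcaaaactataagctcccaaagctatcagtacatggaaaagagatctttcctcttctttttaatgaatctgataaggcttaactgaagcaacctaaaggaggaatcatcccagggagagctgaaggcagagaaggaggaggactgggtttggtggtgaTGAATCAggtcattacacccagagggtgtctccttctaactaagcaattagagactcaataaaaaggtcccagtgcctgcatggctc
The matches lie at positions -183 in Capn2 and -87 in Tchhl1 before the start, and the motif reads alike on both strands. TGANTCA stood in 6.87% of all promoters, in 0 of the 35 of genes called higher and in 5 of the 27 of genes called lower (18.5%). The 5 were Capn2, Tchhl1, Hamp, Il17a and Sema4d. The E-box CACGTG, each copy of which also holds the core ACGTG, stood in 6.05% of all promoters, in 0 of the 35 and in 3 of the 27 (11.1%). These counts are small and no test was made of them.

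Some of the larger called changes were in genes without a value in some papilloma, or outside the rule for naming, and are given after their values were seen. Morn5, a protein with MORN repeats, rose by 2.72 ± 0.38 with the smallest adjusted p of all (0.0014, 10 against 8). It ran from -5.49 to -1.19 in the low-risk and from -2.32 to -0.28 in the high-risk papillomas, and it was called in all 19 fits that left out 1 papilloma. Lonrf2 and Trpd52l3 rose by 2.63 and 2.43, while 2310026I22Rik, Mif4gd and Trpc6, a calcium-permeable channel, fell by 2.50, 2.19 and 2.14 (adjusted p 0.0338, 0.0433, 0.0188, 0.0232 and 0.0274). Within the shared array set the change of Lonrf2 was 0.30, that of Morn5 1.07 and that of Mif4gd -0.74. Mif4gd was measured in 6 low-risk papillomas, and without high-risk papillomas 6 to 9 its change was -1.38.

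Of the remaining named genes, all measured in every papilloma, Elapor1, a protein of endosomes and lysosomes, had 2.09 ± 0.41 (adjusted p 0.0157) and Tbpl1, a relative of the TATA-binding protein, had 2.00 ± 0.49 (adjusted p 0.0485). Probes annotated as the small nucleolar RNA Snord88c, the histone variant H2al1m and the unnamed transcript 4930599N23Rik rose by 1.59, 1.47 and 1.45 (adjusted p 0.0354, 0.0126 and 0.00858). Ttll11, a ligase that adds glutamate chains to tubulin, rose by 1.43, Tex38, named for its testis transcript, by 1.20, and Socs7, of the family of cytokine signalling suppressors, by 1.07. The transcript 2900040C04Rik rose by 1.06 (adjusted p 0.0285). Among falls, Armc9, an armadillo-repeat protein of the cilium base, fell by 1.33 and Actl6b, an actin-like subunit of a neuronal chromatin remodeller, fell by 1.23 (adjusted p 0.0285 and 0.0237). Armc9 came to -0.32 after scaling to a common spread and -0.38 after quantile normalization. Zfp536, a zinc-finger protein, fell by 1.14 (adjusted p 0.0406). Of the fits that left out 1 papilloma, Elapor1, H2al1m and 4930599N23Rik were called in 19 of 19 and Tbpl1, Tex38 and Socs7 in 6.

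**Figure D4:**
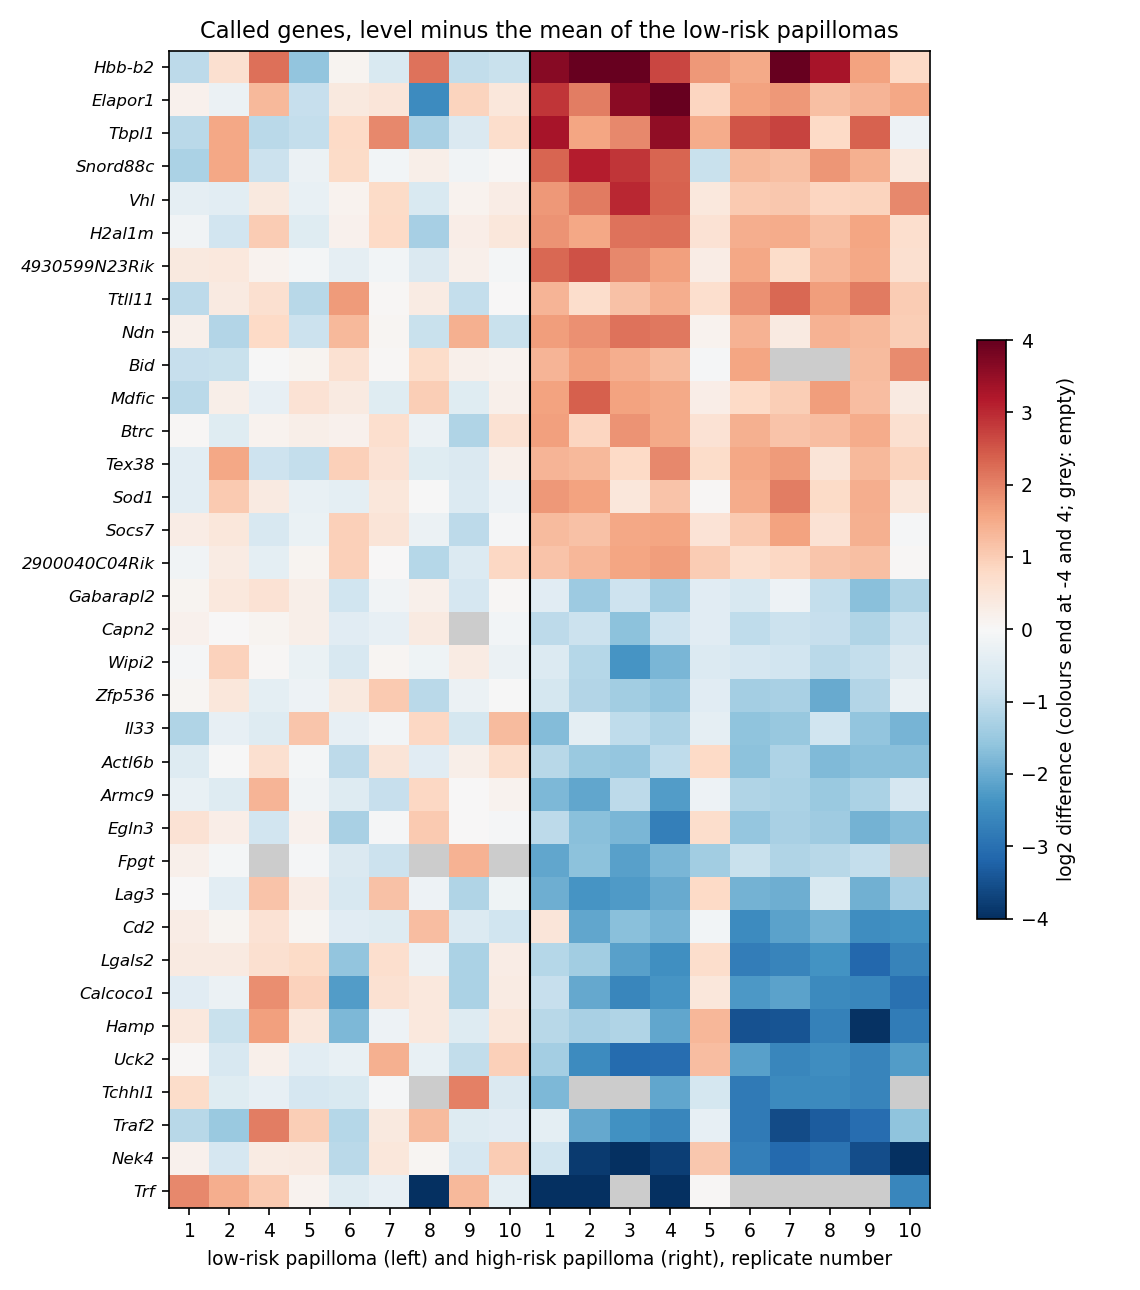
Level of 35 called genes (vertical axis) in each papilloma (horizontal axis, low-risk left, high-risk right, by replicate number), minus the mean of the low-risk papillomas, as a log2 difference; red is higher, blue lower and grey empty. High-risk papilloma 5 is paler than the other high-risk tumours or of the opposite colour in many genes, such as Nek4 and Uck2.

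High-risk papilloma 5 and low-risk papilloma 6 bore most on the count of calls. Without high-risk papilloma 5 limma called 718 probes (314 higher, 404 lower), and without low-risk papilloma 6 it called 557 (308 higher, 249 lower), and either set included all 126. Leaving out one of the others gave 60 to 178 calls. The lowest counts were 60 without low-risk papilloma 1 and 66 without low-risk papilloma 5 or high-risk papilloma 4. They were 69, 72, 77 and 81 without high-risk papillomas 2, 6, 9 and 3. In each of these fits all 126 changes kept their direction, which the choice of the 126 in the same arrays largely fixed. With array weights 1250 probes were called, and after scaling of the arrays to a common spread 37 were called, 12 of them among the 126. That scaling kept the direction of all 46 called genes named here and shrank 18 of them by over 1.5 times. Besides Hbb-b2, Sod1 and Armc9, these were Nek4 (-1.64), Calcoco1 (-1.32), Hamp (-1.28), Lag3 (-0.92), Fpgt (-0.88) and Il33 (-0.70) among falls. Among rises they were Morn5 (1.81), Elapor1 (1.27), Tbpl1 (1.19), Snord88c (0.87), Ttll11 (0.87), H2al1m (0.86), Mdfic (0.81), Tex38 (0.69) and Socs7 (0.64). The fall of Mif4gd grew to -3.46. Quantile normalization shrank 13 of the 46 by over 1.5 times.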

How the data were processed

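The authors deposited log2 ratios of the 2 channels of each array. Neither their base nor their direction is stated there. Base 2 and Cy5 over Cy3 were taken, the base because values reach 13.57 in size. The reference was in Cy5 on every papilloma array but the swapped one, per the labels, so the sign of the others was turned. The authors' background correction, normalization and spot filters are not given in the sources used here, and such steps could change both the spread of an array and its empty probes. RNA was extracted with Trizol and RNeasy, per the labels' protocols.

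Each array was centred on its median. The deposited medians ran from -0.23 to 0.32. The swapped array's title and source name give different numbers, and it was averaged with low-risk array 1 by its source name. Probes measured in at least 3 replicates of each group and 70% of the 31 replicates were tested, 1 per symbol (the probe with most values), which left 18904. Names come from the platform annotation, in which 16076 probes had 1 symbol, 288 several and 5633 none. The number of arrays limits the precision. Limma 3.58.1 in R 4.3.3 fitted 4 group means with moderated variances, and every adjusted p is from it, by Benjamini and Hochberg, at 0.05. The fit was tested on simulated data.

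The replicate numbers do not pair the papillomas. Across genes, deviations of same-numbered tumours correlated at -0.190 to 0.206 over 9 pairs. Arrays were sorted into 5 sets by average linkage on their pattern of empty probes. The papillomas, the gene lists and the tests were chosen with earlier results of these data known. Named genes were the 15 largest rises and falls among called genes measured in every papilloma, called members of 31 lists, called genes without overlap, and up to 3 members of a list with the smallest p, most of which are summarised by their list. Promoters came from a RefSeq table, and 62 called genes matched it. Tables and plots were made with Python 3.11.15, pandas 2.3.3 and matplotlib 3.10.9. The 10 papillomas with no risk label, on another array design, were not used here.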

Additional observations from a re-analysis of the deposited data

Results flagged for a closer look

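For 56 genes the level of each papilloma was set against the rest of its group, which gave 112 groups of values, and in 11 of them 1 tumour stood far from the others. The nominal rate of this rule is about 1 group in 20, and its rate by chance in these groups was not measured. The groups share the same 19 tumours and most genes were chosen for their change, so they are not independent. In 9 of the 11 it was high-risk papilloma 5. That tumour was far above the other high-risk papillomas in Egln3, the oxygen-dependent hydroxylase, at 2.17, in Il17a, the Th17 cytokine, at 3.29, and in Ackr3, the Cxcl12 scavenger, at 1.75. It was also far above them in Uck2, the pyrimidine salvage kinase, at 3.85, in Lgals2, galectin-2, at 3.72, and in Actl6b, the chromatin remodeller subunit, at 2.50. Oaz1, the polyamine antizyme, was at 1.87 there, Trpc6, the calcium-permeable channel, was at 3.52, and Bid, the death signal carrier, was far below the other high-risk papillomas, at -0.23. In each of these 9 genes its value lay within the range of the low-risk papillomas or nearer to their mean than to the mean of its own group.

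The other 2 were low-risk papillomas. Trf, transferrin, was at -6.18 in low-risk papilloma 8, far below the rest of its group. Ctnnb1, beta-catenin, was at -1.15 in low-risk papilloma 6, the same tumour whose array correlated best with high-risk papilloma 5.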

How the results depend on the processing

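The 126 calls (67 higher, 59 lower) depend on the 4-group model. Limma called 0 probes in either direction when only the papillomas were fitted, within 1 range of array database numbers (9 against 6; 2089 at an unadjusted p under 0.05), with the array set as a block and within the shared set. It also called 0 with the replicate number as a block (2313 unadjusted); the numbers did not pair the tumours. Scale normalization gave 37 calls (19 higher, 18 lower), quantile normalization 65 (41 higher, 24 lower) and array weights 1250 (550 higher, 700 lower). With the swapped array as a replicate of its own 187 were called, 94 of them lower. Leaving out each papilloma gave 60 to 718 calls, 23 to 314 higher and 33 to 404 lower. The count was within 1.5 times of 126 without centring, with other probe filters or summaries, without the swapped array or its partner, with shared codes as a block and with robust variances. The filter to probes measured in all 31 replicates tested only 5583. It called 110, which included all 46 of the 126 that it kept. Of 46 called genes named here, all kept their direction in every alternative in which they were tested, other than those of complete linkage. Their choice in the same arrays largely fixed that direction. Scale normalization kept 6 of them past the threshold and quantile normalization 11. Alternatives chosen after seeing the data were the complete-linkage sets, as a block and within a set (0 calls each), and leaving out high-risk papillomas 6 to 9 (200 calls, 106 higher, 94 lower).

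Changes of sign were few outside complete linkage: Tgm1 turned to 0.15 within the shared set. With complete-linkage sets as a block these turned: Egln3 0.31, Cx3cl1 0.03, Btrc -0.04, Socs7 -0.05, Tbpl1 -0.12, Snord88c -0.09, Ttll11 -0.01, Trpd52l3 -0.09, Lcn2 0.28 and Ctnnb1 0.49. Within the complete-linkage set, which compares high-risk papilloma 5 alone with 3 low-risk tumours and assumes that it varies like the others, the following turned. Positive there were Egln3 1.16, Trf 0.47, Hamp 1.84, Cd2 0.47, Lag3 0.68, Il17a 0.48, Cx3cl1 0.37, Ackr3 0.44, Nek4 0.94, Uck2 0.52, Calcoco1 0.86, Tgm1 1.00, Lgals2 0.90, Armc9 0.24, Actl6b 0.73, Lcn2 0.06, Oaz1 0.38, Ctnnb1 0.66, Trpc6 0.99, 2310026I22Rik 0.01 and Traf2 0.06. Negative there were Elob -0.33, Trpd52l3 -0.31, Bid -0.31, Ndn -0.01 and Snord88c -1.12. The cause was not tested.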
